A study of Mus musculus with 15 samples.

Results

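Among the bacterial genera counted in stool of Gpr15l-deficient mice, 20 were named genera of the family Lachnospiraceae other than the Lachnospiraceae NK4A136 group. They were chosen by taxonomy alone, as every genus that the deposited taxonomy places in this family under a name of its own and that had at least 1 count. These 20 of 109 genera or lowest named ranks held 65 of the 507 amplicon sequence variants (ASVs) with any count, and 43780 of 1403011 counts, or 3.12%. An ASV is 1 distinct 16S rRNA gene sequence, and ASVs are numbered here by their total count. The rest of the family consisted of the NK4A136 group, with 40 ASVs and 5.462% of counts, and of 85 ASVs without a named genus, with 5.071%. The threshold of 1 count left out 344 further ASVs of named genera that were listed at 0 in every library, 10 genera among them without any other ASV, while the rarest members, Acetatifactor and UCG-004, had 42 counts each.

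All mice were littermates lacking Gpr15l, per the series text, although the titles of the samples name Gpr15. GPR15L is a peptide that binds GPR15, a receptor that guides T cells to the gut. The mice went through acute colitis from dextran sulfate sodium (DSS), a sulfated sugar polymer that injures the lining of the colon, and received human recombinant GPR15L or saline (PBS) into the rectum each day between day 3 and day 9. Stool was taken before and after the colitis, so the groups were GPR15L before DSS (3 libraries, numbered 1 to 3), PBS before DSS (3, numbered 4 to 6), GPR15L after DSS (4, numbered 8 to 11) and PBS after DSS (4, numbered 12 to 15). The stool before DSS preceded any peptide. The sample numbers 1 to 15 differ between the times, and the labels do not say whether the same mice were sampled at both. Mice were housed by cage and no cage is given for any library, so cage mates may share bacteria and p-values may then be too small. The age of the mice, the DSS dose and the day of the later stool were not given in the sources used here.

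Lachnospiraceae are strict anaerobes of the colon that ferment plant fibres and sugars. Several of their genera turn acetate, lactate or sugars into butyrate, the main fuel of the cells lining the colon, while others form acetate from hydrogen and carbon dioxide or modify bile acids. In DSS colitis, as in human inflammatory bowel disease, butyrate-forming Clostridia have often been described as reduced. Several members here, such as A2, FCS020 group, GCA-900066575, UCG-004, UCG-006 and UCG-010, are database labels of lineages rather than names of described genera, and ASF356 is the label of a clostridial strain of the altered Schaedler flora, a defined set of mouse gut bacteria. A leading family name was dropped from the labels, so UCG-010 here is the lineage of that label within Lachnospiraceae.

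Library totals ran from 62726 to 197433 counts with GPR15L before DSS, from 48847 to 162266 with PBS before DSS, from 53417 to 144379 with GPR15L after DSS and from 50041 to 67860 with PBS after DSS. A group in which a genus was at 0 therefore allowed a share of up to 0.000912%, 0.000872%, 0.000912% and 0.00128% respectively, taken as 3 counts over the summed totals of the group. These limits, and folds written as "at least", cover counting error only. Library 7, with 167329 counts, carries a title that places it with PBS after DSS, whereas its library name follows directly on those of the earlier stool. It was left out of every comparison, and values with it as titled are given where they end a call. The library names of the other 14 also fall into separate runs for the earlier and the later stool, and DSS and a technical batch cannot be told apart in any comparison over time. Shares add up to the whole, so fewer bacteria of 1 genus and more of the others cannot be told apart either.

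**Figure D1:**
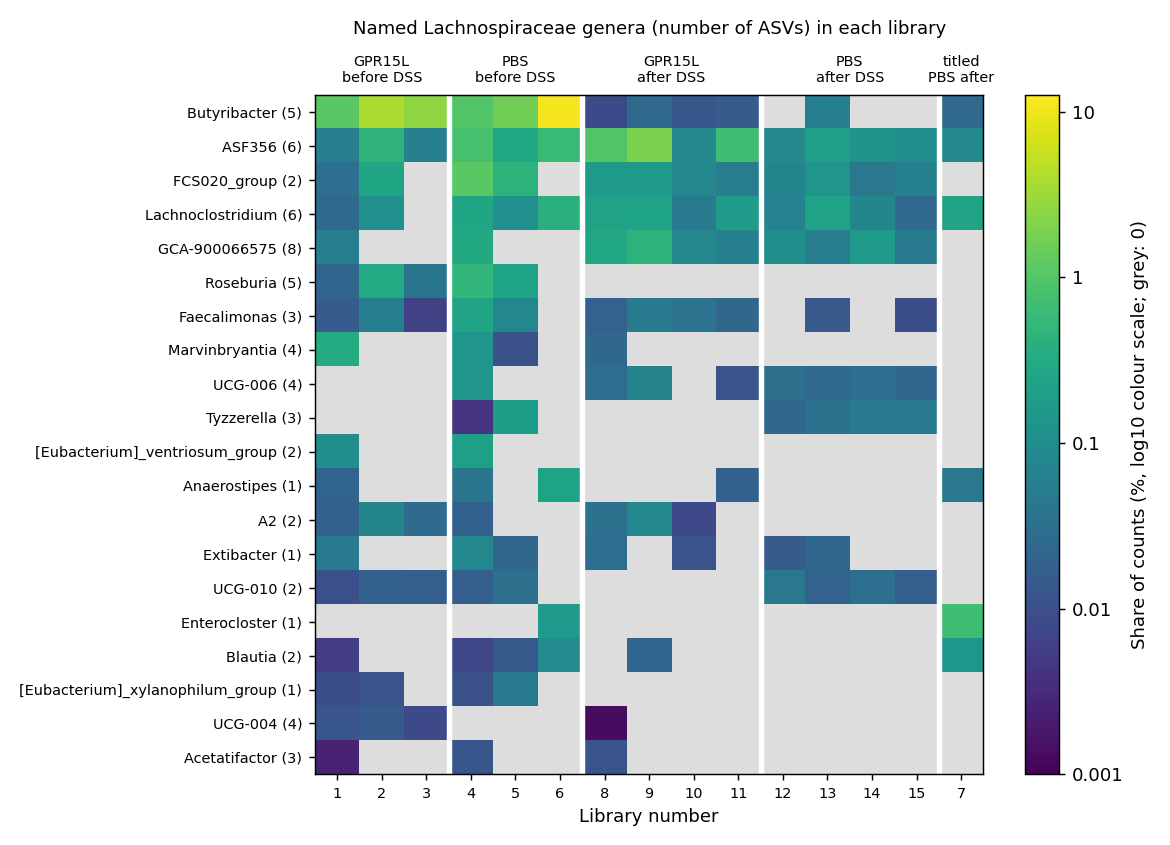
Share of counts of each of the 20 named Lachnospiraceae genera (rows) in each of the 15 libraries (columns, by group), in percent on a log colour scale with grey cells for 0 counts and library 7 in the last column. Butyribacter fills every column before DSS at 0.961% or more and is at 0.0580% or less in every column after DSS, and Roseburia has no count after DSS.

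Between 6 and 18 of the 20 genera were found in a library before DSS, and between 7 and 12 in a library after DSS. ASF356 and Butyribacter were present in all 6 libraries before DSS. ASF356, GCA-900066575, Lachnoclostridium and the FCS020 group were present in all 8 libraries after DSS. In all, 16 genera were found at both times and 4 only before DSS, namely Roseburia, Enterocloster and the [Eubacterium] ventriosum and [Eubacterium] xylanophilum groups. At the level of ASVs the turnover was larger: 22 of 65 were found at both times, 30 only before and 13 only after DSS. Many ASVs were rare, since 18 were found in 1 compared library and 16 in 2.

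The question of the comparison over time was how these bacteria differed between stool from before and after colitis, and the answer turned on Butyribacter, a genus whose cultured species form butyrate. Its share before DSS was 1.11%, 3.88% and 2.59% with GPR15L and 0.961%, 1.66% and 10.9% with PBS. After DSS it was 0.00831%, 0.0262%, 0.0128% and 0.0150% in the GPR15L arm. Of the PBS libraries it was 0.0580% in library 13 and 0 in libraries 12, 14 and 15. The lowest library before DSS stood 16.6 times above the highest library after DSS, so the times did not overlap in either arm. Butyribacter fell from 4.52% ± 5.57 (SD, n = 3) to 0.0145% ± 0.0290 (SD, n = 4) in the PBS arm, a log2 change of -8.05 ± 1.88 (SE; adjusted p = 0.0245, edgeR's quasi-likelihood test with Benjamini-Hochberg adjustment over 78 genera). The standard error is back-calculated from the statistic of the test. Butyribacter fell from 2.53% ± 1.39 (SD, n = 3) to 0.0156% ± 0.00763 (SD, n = 4) in the GPR15L arm, a log2 change of -7.83 ± 1.86 (SE; edgeR adjusted p = 0.0217). Library 6 set the height of the PBS mean before DSS, which was 1.31% without it, and the PBS mean after DSS was 0 without library 13.

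Both edgeR calls on Butyribacter were lost when single libraries were left out. In the PBS arm the adjusted p was 0.0933 without library 14, 0.0535 without library 15 and 0.109 with the 2 groups fitted alone, within a range of 2.46e-07 to 0.109 over all alternatives. In the GPR15L arm it was 0.0556, 0.0892, 0.0616, 0.0705 and 0.0584 without library 3, 8, 9, 10 or 11, within a range of 8.84e-06 to 0.0892. Over these alternatives the log2 change stayed between -15.14 and -6.18 with PBS and between -8.22 and -7.24 with GPR15L.

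Almost all Butyribacter counts came from a pair of ASVs, ASV21 and ASV52. Before DSS they kept a steady proportion, with 3.15, 2.86, 3.59, 2.69, 3.19 and 3.45 counts of ASV21 per count of ASV52 in libraries 1 to 6, although their shares differed widely. Library 13, the PBS library after DSS with Butyribacter, held 18 counts of ASV21 and 11 of ASV52, and library 7 had a ratio of 2.31. The 4 GPR15L libraries after DSS held 12, 18, 8 and 8 counts of ASV21 and none of ASV52. In the GPR15L arm ASV52 fell at least 672-fold, from 0.613% ± 0.371 (SD, n = 3) to 0 (edgeR adjusted p = 0.0101), and this call held in all 14 alternatives. ASV21 fell in both arms, with log2 changes of -6.81 ± 1.84 (SE; edgeR adjusted p = 0.0232) with GPR15L and -8.90 ± 2.01 (SE; edgeR adjusted p = 0.0151) with PBS. The GPR15L call on ASV21 was lost without library 8, 9, 10 or 11 (adjusted p = 0.0662, 0.0591, 0.0524 and 0.0503). The PBS call was lost without library 6 or 12 (0.0515 and 0.0596) and with the 2 groups alone (0.0543), and the PBS mean before DSS was 3.38% with library 6 and 0.842% without it. ASV52 in the PBS arm had a log2 difference of -7.85 ± 2.14 (SE; edgeR adjusted p = 0.0538). A further Butyribacter variant, ASV171, was found at 0.290% in library 4 and 0.0389% in library 5 alone.

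Roseburia, a genus of motile butyrate producers that live near the mucus layer, showed the same order of times on a lower level. Before DSS it made up 0.0218%, 0.322% and 0.0399% with GPR15L and 0.508%, 0.235% and 0% with PBS. It was at 0 in all 8 libraries after DSS, which together allow a share of up to 0.000533%. Roseburia was thus found in 5 of 6 libraries before DSS and in none after it, with library 6 as the exception. In the GPR15L arm it fell at least 140-fold (edgeR adjusted p = 0.0395). That call was lost without any 1 of the 7 libraries of the arm (adjusted p between 0.0528 and 0.106) and with library 7 as titled (0.0701), in a range of 0.00154 to 0.106. In the PBS arm the share after DSS was at least 193-fold lower, with an edgeR adjusted p of 0.0571 and a DESeq2 adjusted p of 0.00235 (range over the alternatives 0.00235 to 0.159). The GPR15L mean before DSS was 0.128% ± 0.168 (SD, n = 3) but 0.0308% without library 2, and the PBS mean was 0.248% ± 0.254 (SD, n = 3) but 0.118% without library 4. Of 3 Roseburia ASVs tested, ASV194 fell with GPR15L, from 0.0731% ± 0.0967 (SD, n = 3), or 0.0180% without library 2, to 0, at least 80.2-fold (edgeR adjusted p = 0.0484). It lost the call without any 1 library of the arm (0.0643 to 0.0934) and with library 7 as titled (0.0631), and 3 of its 13 alternatives kept it. Only genera and ASVs with a count in 3 or more libraries were tested. Roseburia and ASV194 met this only through the GPR15L libraries before DSS, since their other counts were in libraries 4 and 5. Their selection for testing was thus not independent of their fall with GPR15L.

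**Figure D2:**
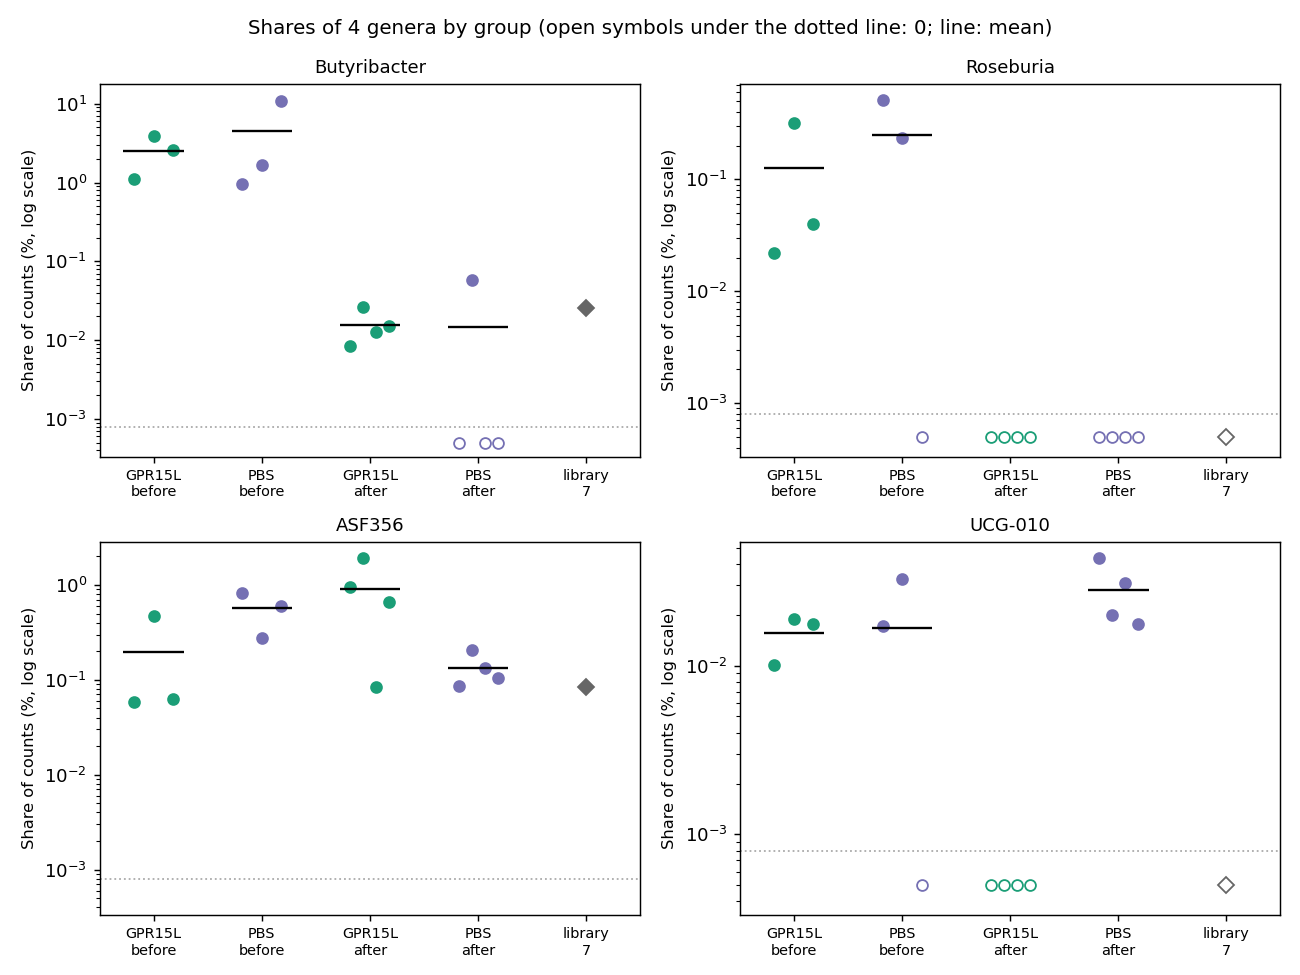
Share of counts per library (percent, log axis; open symbols mark 0 counts) of Butyribacter, Roseburia, ASF356 and UCG-010 in the 4 groups, 1 point per library, with lines for group means and library 7 as a diamond. Butyribacter lies at 0.961% to 10.9% in the libraries before DSS and at most at 0.0580% after DSS, and UCG-010 has counts in the 4 PBS libraries after DSS and in none of the 4 GPR15L libraries.

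The other members with butyrate-forming relatives were rarer. The [Eubacterium] xylanophilum group, named for growth on xylan, was present at 0.00962% to 0.0471% in 4 of 6 libraries before DSS and in none after. The [Eubacterium] ventriosum group was found in library 1 (0.104%) and library 4 (0.218%) alone and was too sparse to be tested. Anaerostipes, which forms butyrate from lactate and acetate, was found at 0.0208%, 0.0382% and 0.243% in libraries 1, 4 and 6, and after DSS at 0.0187% in library 11 alone. Its PBS mean before DSS rested on library 6, at 0.0937% ± 0.131 (SD, n = 3) with it and 0.0191% without it. Acetatifactor, first grown from a mouse intestine, was at 0.00253%, 0.0123% and 0.0118% in libraries 1, 4 and 8 and at 0 elsewhere.

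Summed, these 6 butyrate-associated genera made up 1.27% to 11.2% of counts before DSS and 0% to 0.0580% after DSS, without overlap between the times. The mean was 2.70% ± 1.47 (SD, n = 3) against 0.0232% ± 0.00891 (SD, n = 4) with GPR15L, and 4.95% ± 5.39 (SD, n = 3) against 0.0145% ± 0.0290 (SD, n = 4) with PBS. The PBS means were 1.84% without library 6 and 0 without library 13. Before DSS the sum consisted mostly of Butyribacter. Of the 5 genera of this list that were tested, 1 fell with PBS (Butyribacter), where 1.28% of all 78 genera fell, and 2 fell with GPR15L (Butyribacter and Roseburia), where 7.69% of all genera did. In the PBS arm 4 of the 5 had an unadjusted p under 0.05, against 25 of all 78 genera. All 5 had log2 differences below 0 there, while 31 of all 78 genera were above 0. Their median there was -8.05, or -6.19 with genera at 0 set to their bound, against -0.56 over all 78 genera. Of the 5, only Butyribacter and Roseburia would have been tested without the PBS libraries before DSS. With GPR15L 3 of the 5 had an unadjusted p under 0.05, against 25 of all 78, and 1 of the 5 was above 0. Their median with GPR15L was -5.85, or -2.96 with bounds, against 0.00 over all 78 genera.

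Butyrate producers of other families were counted beside them. Of 10 such genera listed, 4 were in the table, namely Intestinimonas, Oscillibacter and Anaerotruncus, which are clostridia of other families, and Odoribacter of the Bacteroidetes. None of the 4 was called over DSS in either arm by edgeR, with 1 at an unadjusted p under 0.05 in each arm, and DESeq2 called 1 lower with PBS and 1 higher with GPR15L. Their median log2 difference was 0.53 with PBS and 0.26 with GPR15L. Of their 18 ASVs tested, 3 rose and 4 fell over DSS with GPR15L by edgeR, and none was called with PBS, with 3 at an unadjusted p under 0.05 and 1 called higher by DESeq2. Whether the butyrate list of the Lachnospiraceae differed from this list was not tested.

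Over all 18 named genera tested, 1 fell and none rose over DSS with PBS, and 3 fell and none rose with GPR15L (Butyribacter, Roseburia and UCG-010). Among all 78 genera 5.13% were called with PBS, 3.85% higher and 1.28% lower, and 10.3% with GPR15L, 2.56% higher and 7.69% lower. By DESeq2 3 members were lower with PBS (Butyribacter, Roseburia and ASF356), and with GPR15L the same 3 as by edgeR were lower and UCG-006 was higher (adjusted p = 0.0489, range over the alternatives 0.0408 to 0.220). At an unadjusted p under 0.05 edgeR had 7 members with PBS and 6 with GPR15L, where it had 25 of all 78 genera in each arm. DESeq2 called 13 of all 78 with PBS, 6 higher and 7 lower, and 14 with GPR15L, 6 higher and 8 lower. The median log2 difference of the members was -2.92 with PBS (-2.19 with bounds) against -0.56 over all genera, and -0.26 with GPR15L (-0.53 with bounds) against 0.00. Groups did not overlap for 3 members with PBS, all lower after DSS (Butyribacter, ASF356 and Blautia), where 8.97% of all genera were. With GPR15L, 4 members were lower in every library after DSS (Butyribacter, Roseburia, UCG-010 and UCG-004), against 12.8% of all genera, and GCA-900066575 was higher in every library, against 10.3%. Blautia would not have been tested without the PBS libraries before DSS, nor Roseburia and UCG-004 without the GPR15L libraries before DSS. For these genera selection for testing was thus not independent of the difference.

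The summed share of the 20 genera was 1.89%, 5.22% and 2.75% with GPR15L and 4.92%, 3.13% and 12.4% with PBS before DSS. After DSS it was 1.80%, 3.02%, 0.360% and 1.03% with GPR15L and 0.443%, 0.807%, 0.528% and 0.340% with PBS. The PBS libraries did not overlap between the times, while 1 GPR15L library after DSS (library 9) stood among those from before. Group means were 3.29% ± 1.73 and 6.83% ± 4.93 (SD, n = 3) before DSS with GPR15L and PBS, and 1.55% ± 1.14 and 0.529% ± 0.200 (SD, n = 4) after it. The difference over DSS was -6.30 percentage points with PBS, or -3.49 without library 6, and -1.74 with GPR15L, or -0.768 without library 2. Leaving Butyribacter out of the sum, the means were 0.761% ± 0.591 and 2.31% ± 1.43 (SD, n = 3) before DSS, and 1.54% ± 1.14 and 0.515% ± 0.174 (SD, n = 4) after DSS, in the same order of arms. Those before DSS were 0.471% without library 2 and 1.49% without library 4. Butyribacter had been 75.7% and 53.5% of the counts of the 20 genera before DSS on average and was 1.58% and 1.79% after it.

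Within the family the named genera also took a smaller place after DSS. They made up 64.3%, 41.5%, 42.6%, 19.0%, 27.6% and 51.7% of Lachnospiraceae counts in libraries 1 to 6. In libraries 8 to 15 they made up 11.5%, 11.5%, 7.64%, 15.5%, 5.17%, 7.32%, 1.45% and 2.50%. The times did not overlap, with the lowest library before DSS at 19.0% and the highest after it at 15.5%. With Butyribacter left out of both the genera and the family, the ranges were 4.16% to 42.6% before and 1.45% to 15.3% after DSS, and they overlapped. The NK4A136 group, a common lineage of the mouse gut known by a database label, made up 1.73% ± 1.56 and 4.83% ± 5.12 (SD, n = 3) of counts before DSS with GPR15L and PBS, and 9.06% ± 7.47 and 9.24% ± 5.95 (SD, n = 4) after DSS. Its means before DSS were 0.890% without library 2 and 2.13% without library 4, and its GPR15L mean after DSS was 5.58% without library 9. edgeR called it in neither arm over DSS. Lachnospiraceae without a named genus were at 2.31% ± 1.61, 8.78% ± 4.16 (SD, n = 3), 2.72% ± 1.65 and 7.61% ± 6.90 (SD, n = 4) in the same order, and were not called either. Their GPR15L mean before DSS was 1.49% without library 2, and their PBS mean after DSS was 4.19% without library 14.

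**Figure D3:**
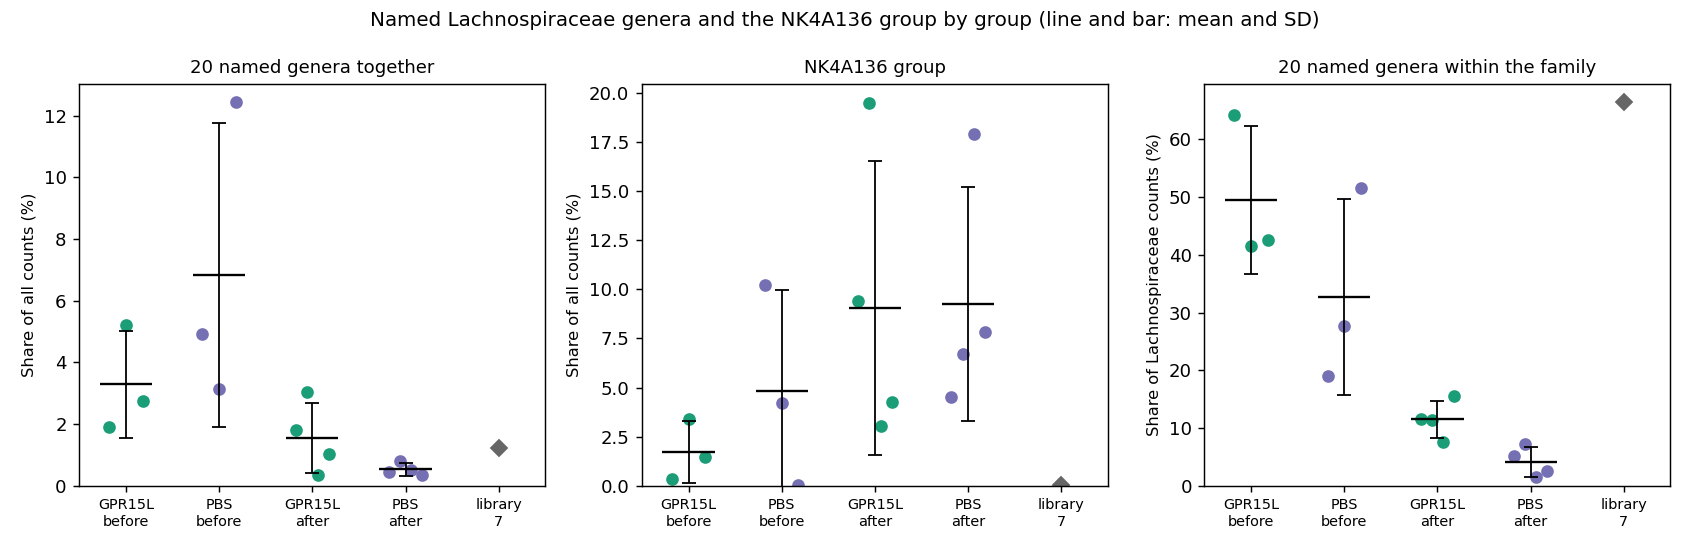
Per library, the summed share of the 20 named genera, the share of the NK4A136 group (both in percent of all counts) and the share of the named genera within Lachnospiraceae counts (percent), by group, with points for libraries, bars for the mean ± SD and a diamond for library 7. The third panel shows 19.0% to 64.3% before DSS and 1.45% to 15.5% after DSS.

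Acetogens, which make acetate from hydrogen and carbon dioxide, were represented by Blautia and Marvinbryantia. Blautia was found at 0.00557% in library 1, at 0.00740%, 0.0143% and 0.0955% in libraries 4 to 6, and after DSS at 0.0219% in library 9 alone. In the PBS arm it was thus present in all 3 libraries before and in none of 4 after DSS, at least 30.4-fold lower (edgeR adjusted p = 0.0822). Marvinbryantia was at 0.337% in library 1, 0.137% in library 4, 0.0102% in library 5 and 0.0235% in library 8, and at 0 in the other 10 compared libraries. Neither was called in any comparison by edgeR, and both had an unadjusted p under 0.05 over DSS with PBS. Without the PBS libraries before DSS neither would have been tested, so their selection was not independent of that difference. Extibacter, a genus with a mouse species that dehydroxylates bile acids, was found at 0.0246% to 0.0807% in 3 of 6 libraries before and at 0.0112% to 0.0298% in 4 of 8 after DSS.

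ASF356 was the second most abundant member and the most abundant one after DSS. It made up 0.0577%, 0.466% and 0.0622% with GPR15L and 0.821%, 0.278% and 0.596% with PBS before DSS. After DSS it was 0.961%, 1.93%, 0.0845% and 0.661% with GPR15L and 0.0867%, 0.206%, 0.133% and 0.105% with PBS. In the PBS arm every library after DSS was below every library before, while 3 of 4 GPR15L libraries after DSS stood above all 4 PBS libraries and library 10 stood below them. The means were 0.195% ± 0.234 (0.0600% without library 2) and 0.565% ± 0.273 (SD, n = 3) before DSS, and 0.908% ± 0.770 (0.569% without library 9) and 0.133% ± 0.0523 (SD, n = 4) after DSS. The difference between arms after DSS was 2.43 ± 0.83 (SE) on the log2 scale, with an edgeR adjusted p of 0.0554 and a DESeq2 adjusted p of 0.00538 (range 0.00538 to 0.148). Over DSS it was -1.75 ± 0.85 (SE) with PBS (edgeR adjusted p = 0.168, DESeq2 0.0494, range 0.0494 to 0.310) and 1.88 ± 0.90 with GPR15L (edgeR adjusted p = 0.162).

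ASF356 consisted of different ASVs in different libraries. ASV62 was in all 8 libraries after DSS, at 0.887%, 1.67%, 0.0813% and 0.524% with GPR15L and 0.0867%, 0.206%, 0.133% and 0.105% with PBS, and in 4 of 6 libraries before. It was the whole of ASF356 in the PBS libraries after DSS. ASV113 was found in libraries 1, 4 and 6 (0.0431%, 0.368% and 0.465%) and in library 7 (0.0616%), and in none of the 8 libraries after DSS. ASV198 was found after DSS in 3 of 4 GPR15L libraries alone.

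The FCS020 group and Lachnoclostridium, a loose assembly of former Clostridium species, were common at both times. The FCS020 group was at 0.0963% ± 0.141 and 0.526% ± 0.572 (SD, n = 3) before DSS with GPR15L and PBS, and at 0.113% ± 0.0564 and 0.0795% ± 0.0418 (SD, n = 4) after. Its GPR15L mean before DSS was 0.0157% without library 2, and its PBS mean was 0.222% without library 4. Lachnoclostridium was at 0.0482% ± 0.0629 and 0.258% ± 0.141 (SD, n = 3) before, and at 0.175% ± 0.0857 and 0.1001% ± 0.0917 (SD, n = 4) after DSS, where the PBS mean was 0.0555% without library 13. Its GPR15L mean before DSS was 0.0127% without library 2. GCA-900066575 was found in 2 of 6 libraries before DSS, library 1 at 0.0577% and library 4 at 0.304%, and in all 8 after it, at 0.0618% to 0.455% with GPR15L and 0.0511% to 0.164% with PBS. None of these 3 genera passed the edgeR test in any comparison.

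After DSS the arms were compared to ask whether rectal GPR15L went with a different microbiota. Of the 18 named genera tested, 1 was lower with GPR15L than with PBS and none was higher, while 14.1% of all 78 genera were called, 3.85% higher and 10.3% lower. That genus was UCG-010, which made up 0.0433%, 0.0200%, 0.0309% and 0.0176% in PBS libraries 12 to 15 and had no count in the 4 GPR15L libraries. It was at least 30.7-fold lower with GPR15L (edgeR adjusted p = 0.0211). The adjusted p was 0.0547 without library 8, 0.0565 without library 9, 0.0505 without the count filter and 0.0791 with library 7 as titled, in a range of 0.00192 to 0.0791. Before DSS, UCG-010 was at 0.0101%, 0.0189% and 0.0175% with GPR15L and at 0.0173%, 0.0328% and 0% with PBS. It fell over DSS with GPR15L at least 17.0-fold (edgeR adjusted p = 0.0395), a call that was lost without any 1 library of the arm (0.0528 to 0.104), without the count filter (0.0529) and with library 7 as titled (0.0943), in a range of 0.00473 to 0.104.

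The UCG-010 counts of the earlier and later stool came from different ASVs. ASV294 was in 5 of 6 libraries before DSS and in none after it. ASV316 was in the 4 PBS libraries after DSS and in none of the other 10. The same genus label thus covered a variant found before DSS and another found after it.

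At an unadjusted p under 0.05, 4 members differed between the arms after DSS, and DESeq2 called 4, 2 of them higher and 2 lower with GPR15L. Of all 78 genera 23 had an unadjusted p under 0.05, and DESeq2 called 16, 7 higher and 9 lower. Tyzzerella was at 0.0226%, 0.0340%, 0.0501% and 0.0463% in PBS libraries and had no count with GPR15L, at least 42.0-fold lower (edgeR adjusted p = 0.0548, DESeq2 0.0186, range 0.00150 to 0.114). Without these PBS libraries Tyzzerella would not have passed the count filter, so its selection for testing was not independent of this difference. A2 was at 0.0339%, 0.0802%, 0.00797% and 0% with GPR15L and had no count with PBS, at least 23.8-fold more (edgeR adjusted p = 0.0548, DESeq2 0.0221, range 0.0221 to 0.108). Faecalimonas was higher in every GPR15L library than in any PBS library, at 0.0194% to 0.0510% against 0% to 0.0140% (edgeR adjusted p = 0.358). Groups without overlap were this 1 member on the higher side, where 6.41% of all genera stood, and UCG-010 and Tyzzerella on the lower side, where 15.4% did. The summed share of the named genera was 1.02 percentage points higher with GPR15L, or 0.532 without library 9, and the ranges of the arms overlapped. With the ASVs entered as Incertae_Sedis counted as members, the difference was 0.0966 points, with means of 2.12% ± 1.54 and 2.02% ± 0.976 (SD, n = 4), so its size depended on that choice. Butyribacter, at 1.07 times the PBS mean with GPR15L (edgeR adjusted p = 1), passed the test as higher with GPR15L when library 13 was left out (edgeR adjusted p = 0.0176, the lowest of a range up to 1). The other 3 PBS libraries had no count.

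The comparison between arms after DSS was also made at the level of ASVs. Of 31 member ASVs tested, 5 were higher and 2 lower with GPR15L, while 10.6% and 17.4% of all 282 ASVs tested were, or 28% in all. Each of the 7 had no count in the other arm. The largest of them was ASV136 of Lachnoclostridium, at 0.185%, 0.216%, 0.0510% and 0.133% in GPR15L libraries 8 to 11 and at 0 in the PBS libraries. GPR15L libraries held at least 114-fold more (edgeR adjusted p = 0.0182), and all 15 alternatives kept the call, with adjusted p between 1.29e-05 and 0.0422. Before DSS, ASV136 was found in both arms, in libraries 1, 2, 4 and 5 at 0.0187% to 0.130%. Of the other Lachnoclostridium ASVs, ASV243 was at 0.0226% to 0.0752% in all 4 PBS libraries after DSS. ASV270 was at 0.0433% and 0.174% in PBS libraries 12 and 13. In the GPR15L libraries ASV243 was at 0.0189% in library 9 and ASV270 at 0.0505% in library 11. The genus as a whole was not called (edgeR adjusted p = 0.865).

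ASV198 of ASF356 was at 0.0734%, 0.252%, 0% and 0.137% with GPR15L, or at least 90.0 times the PBS level (edgeR adjusted p = 0.0341), with a mean of 0.116% ± 0.107 (SD, n = 4) that was 0.0700% without library 9. It missed the threshold without library 12, 13, 14 or 15 (0.0710, 0.0539, 0.0640 and 0.0676) and under the filter on mean share (0.0827). Without library 8, 9 or 11, the only ones with a count of it, ASV198 failed the count filter and was not tested. ASV216 of GCA-900066575 was at 0.148%, 0.0889%, 0.0335% and 0.0112%, or at least 54.7 times the PBS level (edgeR adjusted p = 0.0252), with a mean of 0.0703% ± 0.0610 (SD, n = 4) that was 0.0445% without library 8. It missed the threshold without library 14 or 15 (0.0518 and 0.0532). Both ASVs had no count before DSS in any library. They passed the count filter only through the GPR15L libraries after DSS, where they were high. Their selection for testing was thus not independent of these differences, between arms or over DSS. Over DSS in the GPR15L arm they rose at least 127-fold (ASV198, edgeR adjusted p = 0.0494) and at least 77.1-fold (ASV216, edgeR adjusted p = 0.0466). Of the alternatives, 1 of 11 kept the call on ASV198 and 4 of 13 kept that on ASV216, and both lost it without any 1 of libraries 1 to 3 (adjusted p between 0.0799 and 0.0991). ASV198 also lost it without library 10 (0.0511) and was again not tested without library 8, 9 or 11. ASV216 lost it without library 8, 9, 10 or 11 (0.0637 to 0.0793). With library 7 as titled both had an adjusted p of 0.0661.

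ASV233 of Faecalimonas, at 0.0230% ± 0.0101 (SD, n = 4) with GPR15L, stood at least 17.9-fold above PBS (edgeR adjusted p = 0.0477). The call was lost on leaving out any 1 of the 8 libraries (0.0673 to 0.0856), and 4 of 14 alternatives kept it (range 0.00355 to 0.101). ASV268 of A2 was at 0.0305% ± 0.0361 (SD, n = 4), or 0.0140% without library 9, and stood at least 23.8-fold above PBS (edgeR adjusted p = 0.0470). It kept its call in 5 of 14 alternatives (range 0.0188 to 0.106) and lost it without any 1 of the 8 libraries but library 11. On the lower side, ASV288 of Tyzzerella was at 0 with GPR15L and at 0.0382% ± 0.0125 (SD, n = 4) with PBS, at least 42.0-fold lower (edgeR adjusted p = 0.0219). It kept its call in 13 of 14 alternatives and lost it without the count filter (edgeR adjusted p = 0.115). ASV316 of UCG-010 was at least 30.7-fold lower (edgeR adjusted p = 0.0281) and lost its call without library 8 (0.0521), without the count filter (0.147), with library 7 as titled (0.0540) and by DESeq2 (0.0767). ASV288 and ASV316 passed the count filter only through the PBS libraries after DSS, where they were high. Their selection for testing was thus not independent of these differences.

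**Figure D4:**
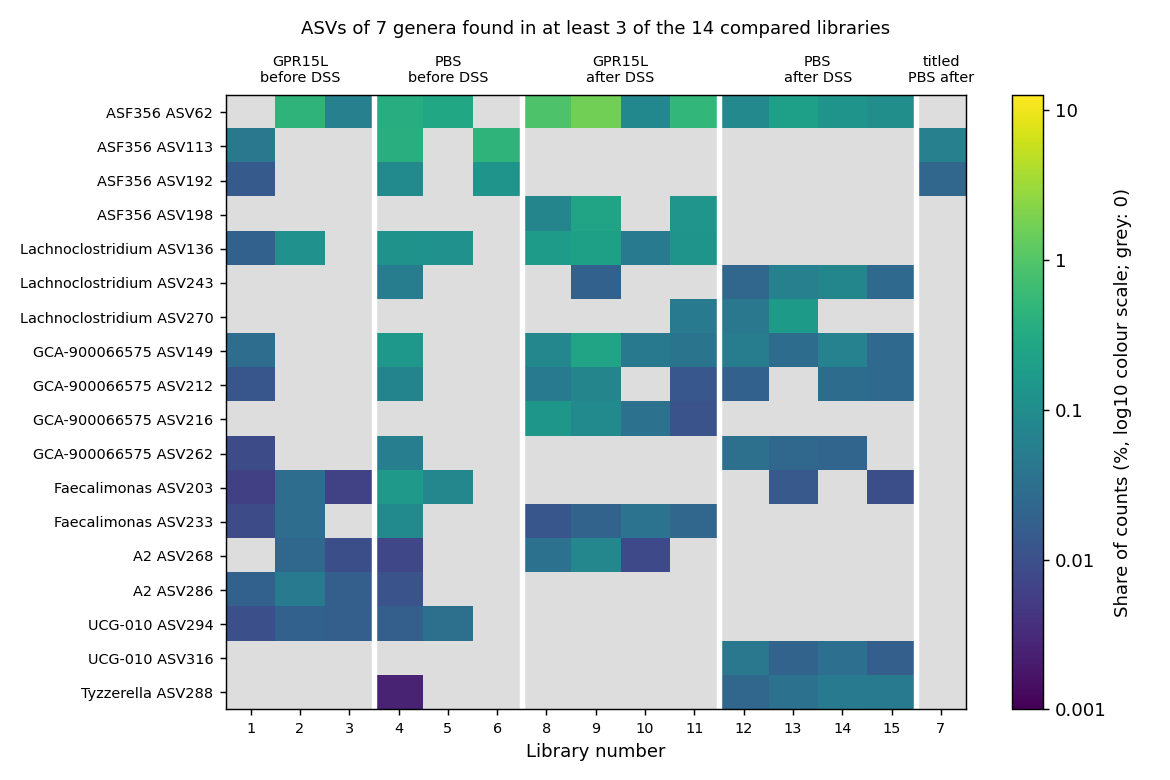
Share of counts of 18 member ASVs of 7 genera found in 3 or more of the 14 compared libraries (rows, grouped by genus) in each library (columns, by group), in percent on a log colour scale with grey cells for 0 counts and library 7 in the last column. ASV136 fills the 4 GPR15L columns after DSS and none of the 4 PBS columns, and ASV316 fills the 4 PBS columns alone.

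Counted without a test, 14 of the 20 genera were found in the GPR15L libraries after DSS and 10 in the PBS libraries. Both arms held 8, GPR15L alone held A2, Acetatifactor, Anaerostipes, Blautia, UCG-004 and Marvinbryantia, and PBS alone held UCG-010 and Tyzzerella. Apart from A2, those 5 genera of the GPR15L arm were each found in 1 library of the 4. Of the member ASVs, 19 were found after DSS with GPR15L alone, 7 with PBS alone and 9 in both arms. The GPR15L libraries were in part deeper, with 329114 counts in all against 233599 with PBS. Per library, 9.25 ± 1.89 genera were found with GPR15L and 8.25 ± 1.26 with PBS (SD, n = 4). For member ASVs the means were 15 ± 4.76 and 11 ± 1.63. Drawn down to the 48847 counts of the shallowest library, the number of genera per library stayed almost the same, at means of 9.14 and 8.25. The counts over whole groups were not drawn down, and were not set against those over all genera or ASVs.

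Over DSS in the GPR15L arm, 7 member ASVs were called, 2 higher and 5 lower, against 8.87% and 19.5% of all 282 ASVs, or 28.4% in all. The 2 higher were ASV198 and ASV216. The 5 lower were ASV21, ASV52, ASV194, ASV286 of A2 (from 0.0291%, or 0.0181% without library 2, at least 31.9-fold, edgeR adjusted p = 0.0484) and ASV294 of UCG-010 (at least 17.0-fold, edgeR adjusted p = 0.0484). ASV194, ASV286 and ASV294 would not have passed the count filter without the GPR15L libraries before DSS. Their selection for testing was thus not independent of these falls. ASV286 and ASV294 each kept the call in 2 of 13 alternatives, and both lost it without any 1 library of the arm (0.0648 to 0.0934) and with library 7 as titled (0.0631 and 0.0661). Both also lost it without the count filter (edgeR adjusted p = 0.138 and 0.181). A2 was thus found through both of its ASVs before DSS and through ASV268 alone after it, while the genus had a log2 difference of -1.13 ± 1.75 (SE; edgeR adjusted p = 0.828). In the PBS arm 1 member ASV was called, ASV21, which fell, while 4.26% of all ASVs were called, 1.77% higher and 2.48% lower. There 16 of 31 member ASVs had an unadjusted p under 0.05, and DESeq2 called 6, all lower. Of all 282 ASVs 89 had an unadjusted p under 0.05 there, and DESeq2 called 51, 24 higher and 27 lower. Among the ASVs of the NK4A136 group, 6 of 29 rose and 3 fell with GPR15L and none was called with PBS.

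Before DSS, when neither arm had received peptide, no named genus differed between the arms by edgeR, with 3 at an unadjusted p under 0.05, and DESeq2 called none. Across all 78 genera edgeR called 0% as well, with 13 at an unadjusted p under 0.05, and DESeq2 called 4. The median log2 difference of the members was -1.26, against -0.54 over all genera. With total counts as the scaling it was -1.75, against -1.13 over all genera. UCG-006 (0.139%) was found in library 4 alone, Tyzzerella was found in libraries 4 and 5 (0.00431% and 0.192%), and UCG-004 was found in the 3 GPR15L libraries (0.0127%, 0.0146% and 0.00797%). These 3 were the genera with an unadjusted p under 0.05. A2 and UCG-004 were higher in every GPR15L library than in any PBS library, where 3.85% of all genera were, and Blautia was lower in every one, where 6.41% were. UCG-004 passed the count filter only through the GPR15L libraries before DSS, and Blautia only through the PBS libraries before DSS. Each was high there, so their selection for testing was not independent of these differences. The summed share was 3.54 points lower with GPR15L, a difference of -3.54 that was -0.736 without library 6. As a share of Lachnospiraceae counts, the difference had the other sign, with 49.4% ± 12.8 with GPR15L against 32.8% ± 16.9 with PBS (SD, n = 3). No member ASV was called, with 2 at an unadjusted p under 0.05 and none by DESeq2, while 1.77% of all ASVs were called by edgeR. Of all 282 ASVs 50 had an unadjusted p under 0.05, and DESeq2 called 17.

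Whether the change over DSS differed between the arms was tested as an interaction. No named genus passed by edgeR, while 3.85% of all genera did. At an unadjusted p under 0.05 there were 4, and DESeq2 called 2, ASF356 and UCG-010. Of all 78 genera 16 had an unadjusted p under 0.05, and DESeq2 called 11. ASF356 had an interaction of 3.63 ± 1.24 (SE) on the log2 scale, with an edgeR adjusted p of 0.0986 and a DESeq2 adjusted p of 0.00836 (range 0.00836 to 0.235). UCG-010 had -8.32 ± 2.54 (SE), with an edgeR adjusted p of 0.0986 and a DESeq2 adjusted p of 0.0197 (range 0.0197 to 0.212). The interaction of Butyribacter was 0.22 ± 2.14 (SE; edgeR adjusted p = 1), but without library 13, the only PBS library after DSS with this genus, the adjusted p was 0.0418, the lowest of a range up to 1. No member ASV passed by edgeR, with 4 at an unadjusted p under 0.05 and 2 called by DESeq2 (ASV136 and ASV187 of Marvinbryantia), while 9.93% of all ASVs passed. ASV187 had its only counts after DSS in library 8, and its edgeR adjusted p was 0.561. Of all 282 ASVs 80 had an unadjusted p under 0.05, and DESeq2 called 60. Among the members ASV136 came nearest, with 10.81 ± 3.31 (SE; edgeR adjusted p = 0.0557, DESeq2 0.00267).

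Library 6 held the fewest members of the 6 libraries before DSS, with 6 genera and 10 ASVs. Library 3 held 7 genera and 11 ASVs, and the other 4 held 10 to 18 genera. Library 6 was the highest of all libraries in Butyribacter, Anaerostipes and Lachnoclostridium, had no Roseburia, FCS020 group or Faecalimonas, and was the single compared library with Enterocloster, a genus of former Clostridium species. Library 7 held exactly the same 6 genera, and its 9 member ASVs were all among the 10 of library 6. Its summed share was 1.22%, its share within the family 66.4%, and its NK4A136 group 0.0257%, outside the ranges of the PBS libraries after DSS. In library 6 the NK4A136 group was at 0.0609%. Its Butyribacter share, also 0.0257%, lay within their range. What these 2 libraries share was not tested further.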

How the data were processed

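DNA from stool was amplified over the V4 stretch of the 16S rRNA gene and read on a MiSeq, per the labels. The authors deposited a table of raw counts for each ASV, made with DADA2, as the table's name says. Its settings and read filters, and the source of the taxonomy, are not given in the sources used. The submitters' processing notes list R 4.5.1 and limma, with no role. PCR counts carry no molecular identifiers.

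Of 3697 ASVs, 3190 were at 0 in all 15 libraries. Counts were summed per genus, with 19 family ASVs entered as Incertae_Sedis (0.7311% of counts) treated as having no named genus. Genera and ASVs with at least 10 counts in all and a count in 3 or more of 14 libraries were tested, which left 78 genera, 18 of them members, and 282 ASVs, 31 of them members. Enterocloster and the [Eubacterium] ventriosum group were not tested. edgeR 4.0.16 in R 4.3.3 fitted 1 mean per group with TMMwsp scaling and the quasi-likelihood test, with Benjamini-Hochberg adjustment at 0.05 over the whole table. DESeq2 1.42.0, other scalings, other filters, library 7 as titled, the 2 groups alone and leaving out each library were the alternatives. Counting the Incertae_Sedis ASVs as members was added after seeing the data. All p-values measure the spread between libraries.

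The members, lists and tests were chosen with earlier results of these data known. Named were genera past 0.05 in any comparison, the 8 of highest mean share, the butyrate list, up to 6 called ASVs in each direction and the 6 ASVs of highest mean share. Others were named after their values were seen. No ASV sequence was used here.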

Additional observations from a re-analysis of the deposited data

Results flagged for a closer look

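In groups of 4 libraries, 1 library stood far from the others for 6 genera. Chance marks about 1 in 20 groups of evenly spread values, a rate that does not hold here, since any count in 1 library is marked where the others are at 0. With GPR15L after DSS these were Acetatifactor in library 8 (0.0118%), Anaerostipes in library 11 (0.0187%), Blautia in library 9 (0.0219%), UCG-004 in library 8 (0.00139%) and Marvinbryantia in library 8 (0.0235%). With PBS after DSS it was Butyribacter in library 13 (0.0580%). In each case the genus had no count in the other 3 libraries of the group.

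Library 7, which entered no comparison, held 4 members above the level of every PBS library after DSS. They were Anaerostipes at 0.0436%, Blautia at 0.148%, Enterocloster at 0.668% and Lachnoclostridium at 0.249%. The first 3 had no count in the 4 PBS libraries after DSS.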

How the results depend on the processing

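No called result changed its direction under any alternative. The summed share, which had no test, changed sign before DSS when taken within the family. As a share of Lachnospiraceae counts it differed by 7.41 points (GPR15L minus PBS) after DSS, 16.7 before DSS, -28.6 over DSS with PBS and -37.9 with GPR15L. With the Incertae_Sedis ASVs as members, the summed share differed by 0.0966, -4.45, -5.87 and -1.32 points in the same order. Leaving out 1 library in turn, the summed share differed by 0.532 to 1.42 points between arms after DSS, -5.39 to -0.736 before DSS, -8.14 to -3.49 over DSS with PBS and -2.43 to -0.768 with GPR15L.

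After DSS, 1 member genus was called between the arms, against 2 with TMM scaling, 4 by DESeq2, 0 without a count filter, 0 with the filter at a mean share of 0.1%, 0 with library 7 as titled, 4 with the 2 groups alone and 0 (without library 8 or 9) to 2 leaving out 1 library. Over DSS with PBS it was 1, against 3 by DESeq2, 2 without a filter, 0 with the groups alone and 0 (without library 14 or 15) to 2. With GPR15L it was 3, against 1 with library 7 as titled, 5 with the groups alone and 0 (without library 3, 8, 9, 10 or 11) to 1 (without library 1 or 2). The interaction had 0, against 2 by DESeq2 and 0 to 1 (without library 13).

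For member ASVs, the 7 called between arms after DSS were 4 without a filter, 1 with the filter at 0.1% and 3 (without library 8, 14 or 15) to 6. The 1 over DSS with PBS was 2 with TMM scaling, 6 by DESeq2, 6 without a filter, 2 with the filter at 0.1%, 0 with the groups alone and 0 (without library 12) to 2. The 7 with GPR15L were 3 with total counts, 4 by DESeq2, 3 without a filter, 2 with the filter at 0.1%, 2 with library 7 as titled and 1 (without library 8, 9, 10 or 11) to 2 (without library 1, 2 or 3). The interaction had 0, against 2 by DESeq2, 1 without a filter and 0 to 1. The cause of these changes was not tested.

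Of the named calls, 94 of 129 kept their side of 0.05 over the other alternatives and 59 of 142 on leaving out a library. No paired analysis was possible because no sample number is shared between the times and the labels do not link samples to mice. With 3 or 4 libraries per group, and members at 0 in whole groups, small differences were not detectable.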
